A study of Homo sapiens with 20 samples.

Results

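The replication-dependent histone genes are the 69 protein-coding genes of chromosomes 1, 6 and 12 with symbols H1-1 to H1-6 or beginning with H2AC, H2BC, H3C or H4C in GENCODE 44, of 20033 protein-coding genes in all. They comprise 6 H1, 17 H2A, 18 H2B, 13 H3 and 15 H4 genes, of which 55 lie on chromosome 6, 13 on chromosome 1 and 1, H4C16, on chromosome 12. The members were chosen by symbol and not by any measured value. The quantity studied was whether a ChIP-seq region lay within 1 kb of the transcription start site (TSS) of the canonical transcript of each gene, and how high that region stood above the background of its library.

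The data are 20 peak lists from 4 established human cell lines, which form 10 pairs, each with DMSO on one side and AU-15330 on the other. NCI-H526 and NCI-H1048 are lines of the tuft cell-like subtype of small cell lung cancer (SCLC-P), and MM1.S and NCI-H929 are multiple myeloma lines. AU-15330 is a PROTAC that degrades SMARCA2 and SMARCA4, the ATPases of the mSWI/SNF chromatin remodelling complex, and was used at 1 µM. The comparisons ask where the POU2F factors and their partners stayed bound once these ATPases were removed.

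In NCI-H526 cells the proteins mapped were POU2F3 with its own antibody, HA-POU2F3 and HA-POU2AF2. NCI-H1048 cells were mapped for POU2F3 with its own antibody, for HA-POU2F3, and in another pair for an HA-tagged protein that the labels do not name. POU2AF1 and IRF4 were mapped in both myeloma lines. HA-POU2F3 and HA-POU2AF2 were lentiviral dTAG-HA constructs in Cas9-expressing cells whose endogenous gene had been knocked out. These HA libraries therefore differ from the antibody libraries of their line in cells as well as in antibody. The titles of the unnamed HA pair do not name a dTAG construct. The sample titles give 6 h of treatment for the 2 HA pairs of NCI-H1048 cells, the treatment protocol gives 4 to 6 h for the series and the design text 4 to 12 h. Legends in the paper give 6 h for ChIP-seq in NCI-H1048, MM1.S and NCI-H929 cells. For NCI-H1048 cells they list HA-POU2AF3 beside POU2F3 and HA-POU2F3, but no label ties the unnamed HA pair to POU2AF3, and it is called unnamed here. Controls received DMSO alone. No condition has more than 1 library. Differences between lists therefore have no replicate check, no test was made, and values are compared as descriptions of these libraries.

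Replication-dependent histone genes make the bulk of the H1, H2A, H2B, H3 and H4 proteins that package newly replicated DNA, and are transcribed in S phase from clusters that share a nuclear body. Each class has its own promoter elements. H2B promoters are known for the octamer, the sequence bound by POU2F factors, and the widely expressed POU2F1 (OCT1) acts there with a coactivator complex. H1 promoters carry an AAACACA box, and H4 promoters a site for HINFP with a GGTCCG core. POU2F3 is the octamer factor of tuft cells, POU2AF2 and POU2AF1 are coactivators that join POU2F factors on octamers, and IRF4 is a plasma cell transcription factor.

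The octamer core TTTGCAT was searched on both strands from 250 bases before to 50 bases after the TSS of every protein-coding gene in hg38. It was present at 14 of 18 H2B and 12 of 17 H2A promoters, at no H1, H3 or H4 promoter, and at 3.53% of all promoters. All 26 of these members held the full octamer ATTTGCAT, which contains the core and was found at 1.62% of all promoters. Many H2A and H2B genes share a promoter, with 12 pairs whose starts face each other 194 to 251 bases apart, and in 9 of these pairs the octamer was present. In H2B genes the core lay 44 to 48 bases before the TSS at 8 promoters and 103 to 149 bases before it at 6, and it read along the gene strand at 13 of 14.

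H2BC21 and H2AC20, which share a promoter, had the highest member level in 8 of the 9 DMSO lists that give a level. That level belongs to the strongest region within 1 kb of their starts. Its summit lay inside the promoter only with the POU2F3 antibody. The promoter is shown whole for this ranking. It lies at chr1:149886683-149886917 on hg38 and is written on the minus strand, from the base beside the H2AC20 start to the base before the H2BC21 start, with the octamer in capitals.
H2BC21 to H2AC20: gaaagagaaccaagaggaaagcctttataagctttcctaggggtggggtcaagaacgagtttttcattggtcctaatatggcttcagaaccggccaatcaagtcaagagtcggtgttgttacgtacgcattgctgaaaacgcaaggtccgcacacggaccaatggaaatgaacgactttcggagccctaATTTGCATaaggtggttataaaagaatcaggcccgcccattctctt

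The next 6 stretches show how the octamer sits in other H2B and H2A promoters, each on its gene's strand with the octamer in capitals, so that an octamer on the opposite strand reads ATGCAAAT. H2BC18 (chr1:149812388-149812448) and H2BC12 (chr6:27146873-27146933) have it close to the start, H2BC6 (chr6:26183624-26183684) and H2BC17 (chr6:27893246-27893306) farther away. H2AC21 (chr1:149888143-149888203) and H2AC7 (chr6:26199382-26199442) carry it on the opposite strand.
H2BC18: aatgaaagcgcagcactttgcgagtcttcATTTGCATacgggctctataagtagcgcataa
H2BC12: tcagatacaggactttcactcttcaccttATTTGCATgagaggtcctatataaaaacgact
H2BC6: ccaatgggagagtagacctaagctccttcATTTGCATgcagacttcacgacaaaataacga
H2BC17: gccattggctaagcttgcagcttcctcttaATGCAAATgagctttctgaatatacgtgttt
H2AC21: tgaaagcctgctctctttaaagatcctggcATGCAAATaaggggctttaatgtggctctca
H2AC7: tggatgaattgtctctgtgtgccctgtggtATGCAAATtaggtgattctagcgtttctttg

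Of the 4 H2B genes without the core, H2BC26 and H2BC5 held a match to the full octamer with 1 substitution, C6A, counted from 1 at the 5′ end of the octamer, beginning 45 bases before the TSS. H2BC13 and H2BC15 differed from it by 2 bases at their closest match. The H2BC26 stretch (chr1:228458029-228458089), with the near match in capitals, is shown for comparison.
H2BC26: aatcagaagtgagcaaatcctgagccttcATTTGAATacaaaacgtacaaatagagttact

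One promoter of each remaining class shows elements other than the octamer. The stretches cover the 150 bases before the TSS of H1-2 (chr6:26056471-26056620), with the H1 box in capitals, of H3C2 (chr6:26032100-26032249), with CCAAT and TATAAA in capitals, and of H4C5 (chr6:26204460-26204609), with GGTCCG in capitals. Searched like the octamer, AAACACA was present at 6 of 6 H1 promoters and 4.19% of all promoters, and GGTCCG at 13 of 15 H4 promoters and 14.7% of all. CCAAT was found at 59 of the 69 members, among them all 17 H2A and all 18 H2B genes, against 36.1% of all promoters. TATAAA was found at 46, among them 13 H2A and 12 H2B genes, against 9.71%. The IRF pattern GAAANNGAA was found at 20, of which 18 were H2A or H2B genes, against 7.04%.
H1-2: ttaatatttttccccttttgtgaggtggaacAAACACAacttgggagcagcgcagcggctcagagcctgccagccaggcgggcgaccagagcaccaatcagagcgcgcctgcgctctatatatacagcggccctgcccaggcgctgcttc
H3C2: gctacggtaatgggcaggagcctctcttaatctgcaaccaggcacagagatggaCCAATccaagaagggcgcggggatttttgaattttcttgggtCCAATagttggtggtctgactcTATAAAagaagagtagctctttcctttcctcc
H4C5: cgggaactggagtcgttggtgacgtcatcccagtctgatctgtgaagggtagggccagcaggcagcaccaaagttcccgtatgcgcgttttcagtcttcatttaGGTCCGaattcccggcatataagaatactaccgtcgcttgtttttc

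The lists held 1327 to 89902 regions on chromosomes 1 to 22, X and Y. The level of a region is the number of tags stacked at its summit divided by the background pileup of its library, which was 1.21 to 4.03 tags. Both were recovered from the fold enrichment and p-value that the authors' caller wrote, in 18 of the 20 lists. For the HA pair of NCI-H1048 cells whose protein is not named this was not possible, and the authors' fold enrichment, the summit over its local background, is given there. Where a gene's window held several regions the highest was taken, and 1 region can count for several genes. Of 8 tuft cell marker genes, 4 to 6 had a promoter region in the DMSO lists of the SCLC-P lines against 0 to 3 of 8 plasma cell markers, and in the myeloma lines 6 to 7 plasma cell and 2 to 4 tuft cell markers had one. Of all genes, 14.3% to 53.2% had one in the DMSO lists of the SCLC-P lines and 43.4% to 59.2% in those of the myeloma lines. A promoter region is not a measure of expression.

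With DMSO, the share of histone promoters with a region was above that of all protein-coding genes in all 10 lists. In NCI-H526 cells POU2F3 had a region at 50 of 69 members (53.2% of all protein-coding genes had one), HA-POU2F3 at 52 (47.2%) and HA-POU2AF2 at 51 (34.2%). POU2AF1 had one at 57 members in MM1.S cells (55.3% of all genes) and at 57 in NCI-H929 cells (52.5%). IRF4 was found at 45 members in MM1.S cells (43.4%) and at 53 in NCI-H929 cells (59.2%).

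The widest gaps between members and all genes were in NCI-H1048 cells. There HA-POU2F3 had a region at 40 of 69 members, 58.0% of them, against 14.3% of all genes. For the HA protein without a name in the labels the count was 50 members, or 72.5%, against 15.2%. The POU2F3 antibody list of the same line was closest to its background, with 30 members, or 43.5%, against 36.5%. Because neighbouring genes share regions, the members called in a DMSO list rested on 25 to 52 distinct regions.

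**Figure D1:**
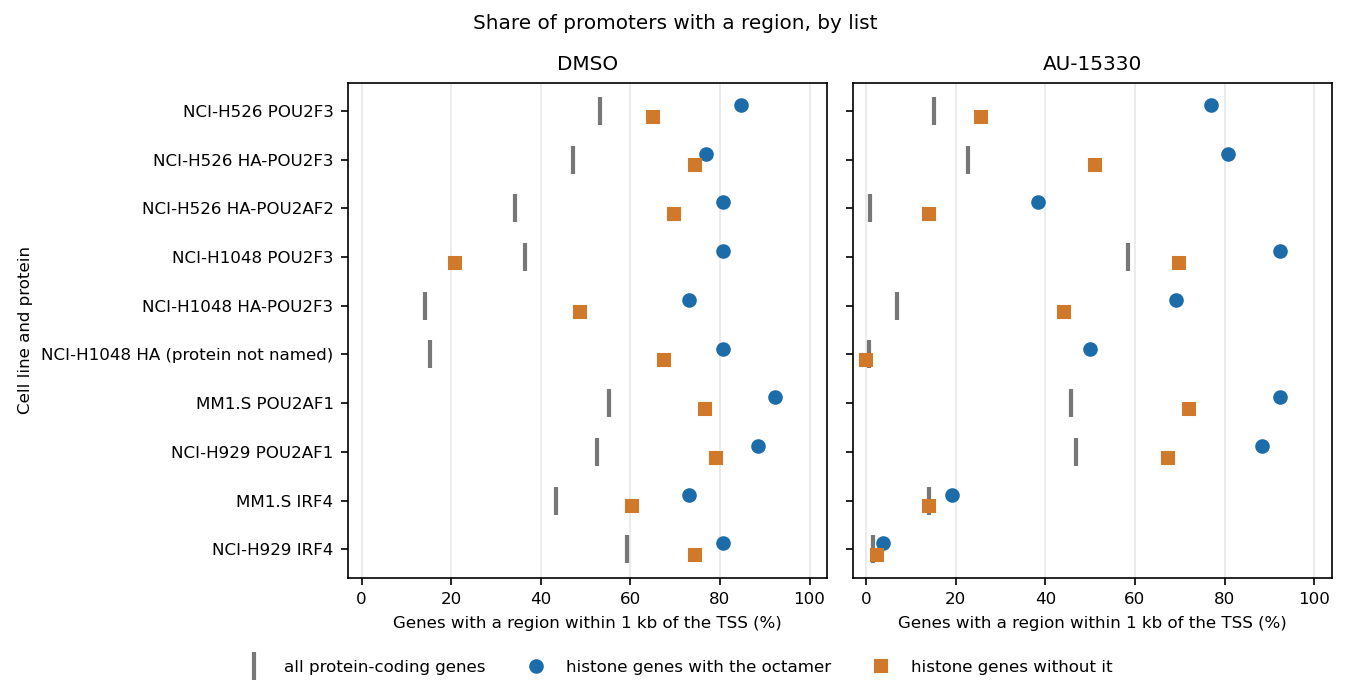
Percent of genes with a region within 1 kb of the TSS in each peak list, with DMSO (left) and AU-15330 (right). Circles are the 26 histone genes with an octamer core, squares the 43 without and grey bars all 20033 protein-coding genes. Circles lie to the right of the grey bar in every list, and among DMSO lists the squares lie to the left of it only for the POU2F3 antibody in NCI-H1048 cells.

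Members with the octamer were called more often than members without it in all 10 DMSO lists. POU2F3 had a region at 22 of 26 octamer and 28 of 43 other members in NCI-H526 cells, and at 21 of 26 and 9 of 43 in NCI-H1048 cells. The difference was small for HA-POU2F3 in NCI-H526 cells, at 20 of 26 and 32 of 43, and for IRF4 in NCI-H929 cells, at 21 of 26 and 32 of 43. The 43 include H3C14, H3C15, H4C14 and H4C15, where an absent region cannot be told apart from unaligned reads, as described below. Leaving these genes out would put the other members ahead in both of these lists. A region was present in at least 1 list at 60 members. The 26 octamer members had one in a median of 16 of the 20 lists and the other 43 in a median of 12, and 25 members, 17 of them with the octamer, had one in all 10 DMSO lists.

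Levels at octamer and other members lay farthest apart for POU2F3. With the POU2F3 antibody in NCI-H526 cells the median level was 21.6 at called octamer members and 9.42 at called members without the octamer, beside 7.44 at all genes with a region. In NCI-H1048 cells the same antibody gave 12.8, 7.50 and 8.83. HA-POU2F3 had medians of 41.4 and 25.6 in NCI-H526 cells, beside 8.85 at all genes with a region, and of 19.8 and 10.6 in NCI-H1048 cells, beside 7.74. For POU2AF1 octamer and other members were closer, at 36.8 and 30.8 in MM1.S cells and 33.4 and 29.7 in NCI-H929 cells, and both were above the 13.4 and 11.6 of all genes. IRF4 showed no separation in MM1.S cells, with 11.4 for both, and little in NCI-H929 cells, with 14.7 and 13.3, beside 9.12 and 11.5 at all genes.

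Over all called members the median level was above that of all genes with a region in each of the 9 DMSO lists that give one, from 11.4 against 9.12 for IRF4 in MM1.S cells to 32.6 against 8.85 in NCI-H526 cells for HA-POU2F3. The authors' fold enrichment, which divides by the local background, did not give this order throughout. It was higher at members for POU2F3 in NCI-H526 cells, 6.19 against 4.47, and lower for POU2AF1, 5.19 against 5.61 in MM1.S cells and 4.89 against 5.30 in NCI-H929 cells. It was lower for IRF4 too, 3.98 against 4.36 and 3.97 against 5.22. The local background at member regions was itself high, with a median of 6.41 times the library background for POU2AF1 in MM1.S cells against 1.48 over all regions.

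**Figure D2:**
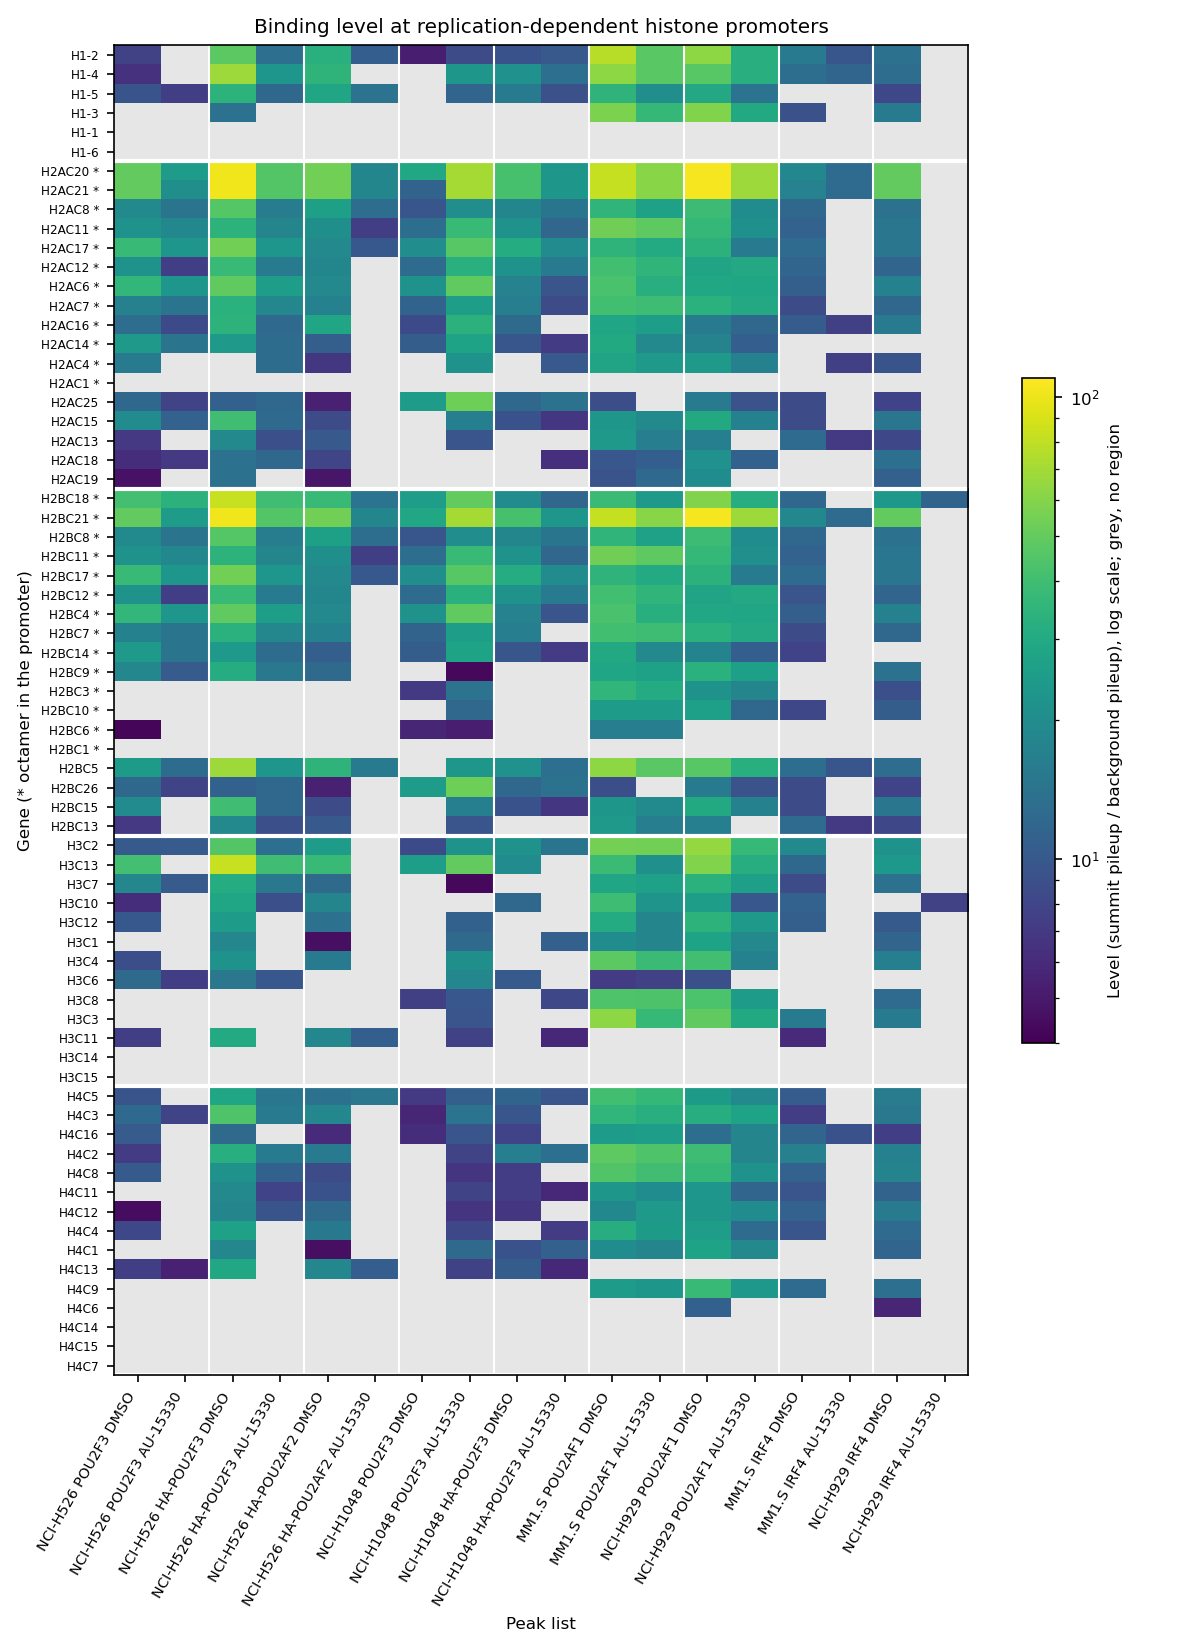
Level of the strongest region within 1 kb of the TSS for each of the 69 genes (rows, by class, * marks an octamer core) in the 18 lists that give a level (columns). Grey cells hold no region. H2AC20, H2AC21 and H2BC21 form the brightest rows, and H1-2 and H1-4 are bright in the HA lists of NCI-H526 cells and in the POU2AF1 lists.

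Among H2B genes, H2BC21, H2BC18 and H2BC17 had a region in the most lists, 19, 19 and 18 of 20. H2BC21 had the highest DMSO level of all members in 8 of the 9 pairs that give a level, tied in each with H2AC20. In NCI-H526 cells its DMSO level was 49.3 for POU2F3, 54.2 for HA-POU2AF2 and 103 for HA-POU2F3. In NCI-H1048 cells it was 28.7 with the POU2F3 antibody and 42.1 for HA-POU2F3. In the myeloma lines it was 82.0 for POU2AF1 and 18.7 for IRF4 in MM1.S cells, and 105 and 49.9 in NCI-H929 cells. Levels of different antibodies and libraries are not on a common scale of binding. The 95% Poisson interval of the first of these levels, 42.7 to 56.7, rests on 199 tags and covers counting error only.

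H2BC18, which has no H2A gene facing it, had DMSO levels of 40.9, 83.8 and 37.3 in NCI-H526 cells for POU2F3, HA-POU2F3 and HA-POU2AF2. With H3C13, which shares its region, it had the highest fold enrichment of any member, 6.80, for the unnamed HA protein with DMSO, while H2BC21 had 2.91 there. Of the 2 kb around its TSS, 40.0% occurs at a second place in the genome when read in stretches of 96 bases, against 6.14% at H2BC21. H2BC17 had levels of 37.7, 54.5 and 18.9 in NCI-H526 cells. H2BC6, with a region in 5 lists, stood at the other end of the octamer-carrying H2B genes that had any, with 4.21 for POU2F3 in NCI-H526 cells, 5.74 in NCI-H1048 cells and 16.5 for POU2AF1 in MM1.S cells, and no region in the remaining DMSO lists.

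H2A genes mostly shared regions with their H2B neighbours. H2AC20 had the values of H2BC21 in every list, since its start is 236 bases away. H2AC21, with an octamer of its own, took the value of H2BC21 in 8 of the 10 DMSO lists because the same region reached its window. A separate region over its own octamer had a POU2F3 antibody level of 31.7 in NCI-H526 cells and 11.5 in NCI-H1048 cells. H2AC17 shared the values of H2BC17.

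The H2BC21 locus also showed how the shape of the regions differed between lists, including the antibody and HA lists of POU2F3. With the POU2F3 antibody separate regions stood over the octamers of H2BC21 and H2AC21. The first was 611 bases long with DMSO in NCI-H526 cells and 339 bases long in NCI-H1048 cells. The HA and POU2AF1 lists with DMSO had a region across all 3 starts, in NCI-H526 cells 1899 bases long for HA-POU2F3 and 2728 for HA-POU2AF2, and 2916 for POU2AF1 in MM1.S cells. IRF4 in NCI-H929 cells with DMSO had such a region too, 1572 bases long.

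**Figure D3:**
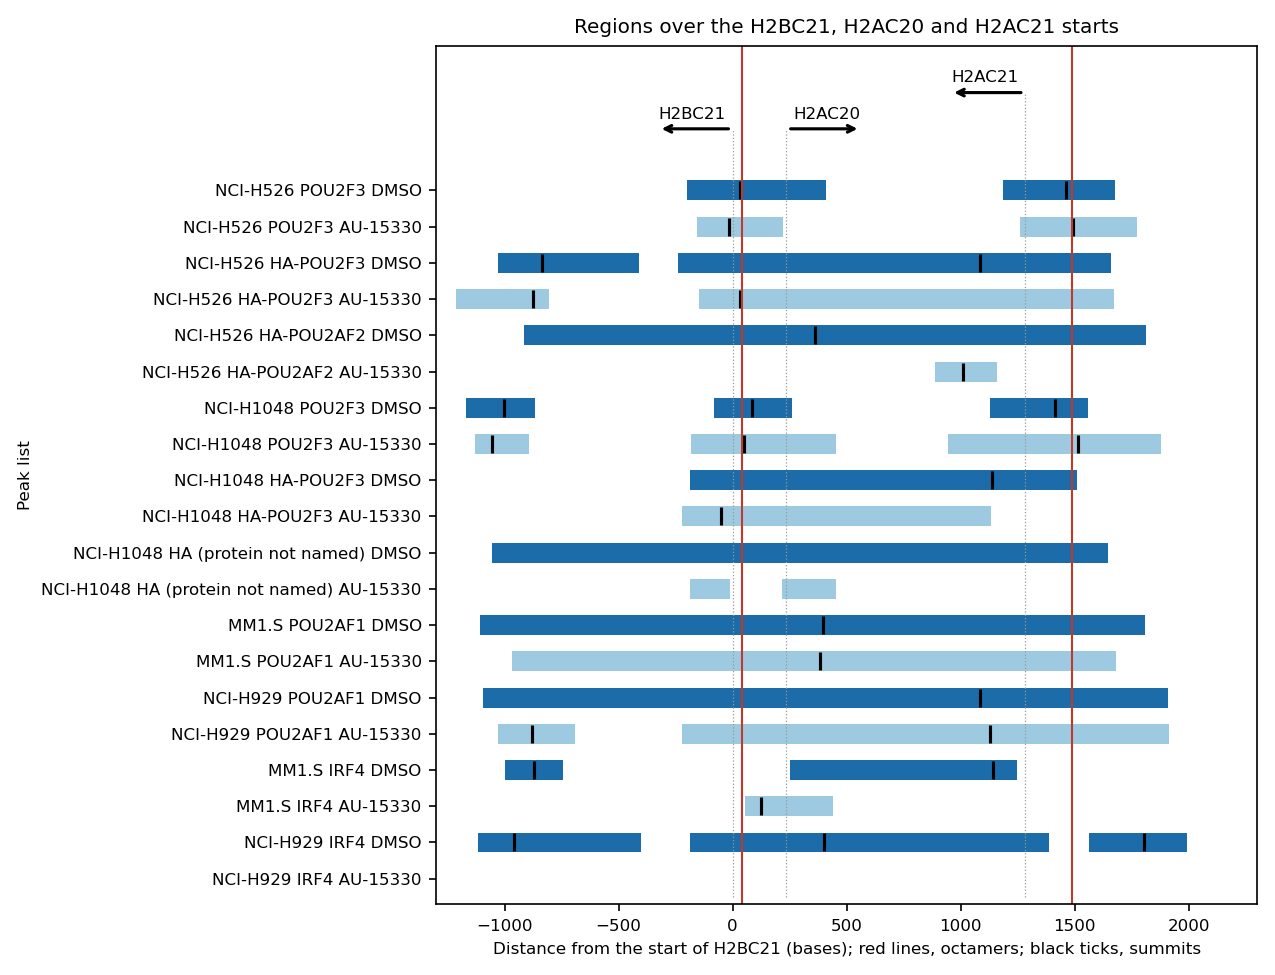
Regions of the 20 lists (rows, dark with DMSO and light with AU-15330) that overlap the windows of H2BC21, H2AC20 and H2AC21, by distance in bases from the H2BC21 start. Arrows mark the genes, red lines the octamers and black ticks the summits. POU2F3 antibody regions stand at the octamers, and NCI-H1048 cells have a further region on the other side of the H2BC21 start. Regions of the HA and POU2AF1 lists and of IRF4 in NCI-H929 cells span all 3 starts with DMSO. With AU-15330 IRF4 in NCI-H929 cells has none.

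Over the octamer-carrying members together, the list with summits nearest to the octamer was that of the POU2F3 antibody in NCI-H526 cells. The median distance from the summit of the strongest region to the nearest octamer core of the gene's window was 12 bases over 13 regions with DMSO in NCI-H526 cells, and 11 of them lay within 50 bases. In NCI-H1048 cells it was 72 bases over 13 regions, 6 of them within 50. HA-POU2F3 summits were a median of 61 bases away in NCI-H526 cells and 31 in NCI-H1048 cells. HA-POU2AF2 had a median of 205 bases and no summit within 50 bases. POU2AF1 summits were 298 and 310 bases away in MM1.S and NCI-H929 cells, and IRF4 summits 345 and 231. With DMSO, member regions had a median length of 842 bases for POU2AF1 and 322 for IRF4 in MM1.S cells. In NCI-H929 cells the lengths were 771 and 454, and in NCI-H526 cells 449 for POU2F3 and 573.5 for HA-POU2AF2. Whether region length bears on summit distance was not tested.

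**Figure D4:**
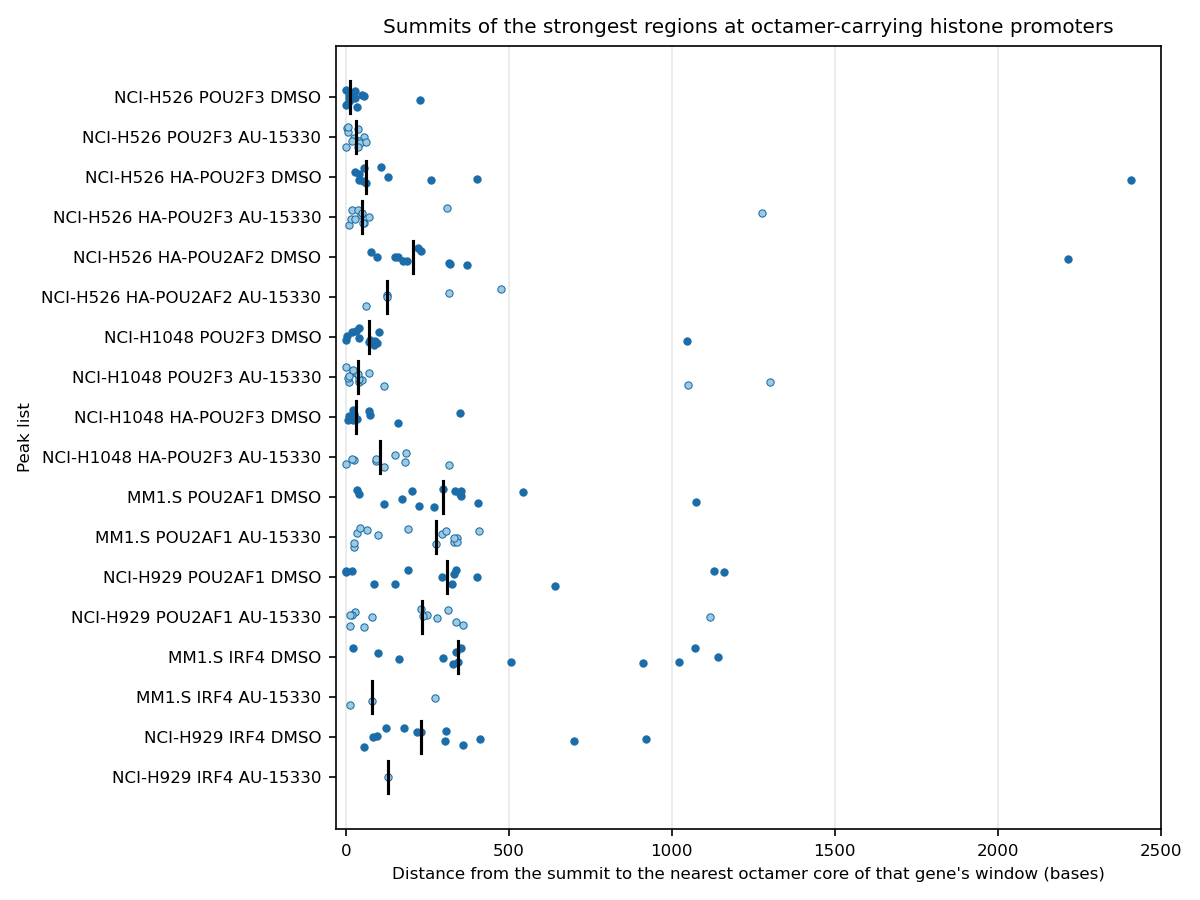
Distance in bases from the summit of the strongest region at each octamer-carrying histone promoter to the nearest octamer core of its window, in the 18 lists with summits (dark with DMSO, light with AU-15330). Each point is 1 region and black bars are medians. The medians are 12 and 72 bases for the POU2F3 antibody with DMSO and 298 and 310 for POU2AF1.

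Among linker histone genes, which have no octamer, H1-2, H1-4 and H1-5 had regions in the most lists. Their levels differed between lists, also between the antibody and HA lists of POU2F3. H1-2 had a DMSO level of 7.69 for POU2F3 in NCI-H526 cells, 48.0 for HA-POU2F3 and 32.7 for HA-POU2AF2. It was 5.30 and 9.19 for POU2F3 and HA-POU2F3 in NCI-H1048 cells, 76.7 and 62.5 for POU2AF1 in MM1.S and NCI-H929 cells, and 16.0 and 13.9 for IRF4. POU2AF1 had its highest class median at H1 promoters in both myeloma lines, 59.7 and 52.6, over the same 4 genes. H1-4 shares its region with H2BC5 in some lists, and in NCI-H526 cells both had 67.5 for HA-POU2F3 and 34.4 for HA-POU2AF2. For the POU2F3 antibody in that line the values were apart, 6.45 at H1-4 and 24.3 at H2BC5. H1-3 had levels of 57.1 and 59.1 for POU2AF1 and a region in only 1 DMSO list of the SCLC-P lines, 14.0 for HA-POU2F3 in NCI-H526 cells.

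H3 genes had fewer regions for the POU2F3 antibody than H2A and H2B genes. Of 13 H3 genes, 8 had a region in NCI-H526 cells and 3 in NCI-H1048 cells, against 15 and 12 of 18 H2B genes and 16 and 11 of 17 H2A genes, beside 53.2% and 36.5% of all genes. H3C2 had the most lists, 16, and levels of 10.2, 45.2 and 24.6 in NCI-H526 cells for POU2F3, HA-POU2F3 and HA-POU2AF2. It was the highest member for IRF4 in MM1.S cells, with 19.6 in a region at chr6:26031710-26032068, and reached 54.8 and 65.0 for POU2AF1. H3C13 took the values of H2BC18, 40.9 for POU2F3 in NCI-H526 cells, because the same region reaches its window. H3C10 had levels of 6.20 for POU2F3 in NCI-H526 cells and 39.2 for POU2AF1 in MM1.S cells.

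With DMSO, H4 genes gave the lowest class median with HA-POU2F3 and POU2AF1 in each line. With AU-15330 the lowest POU2AF1 median was at H3 genes in MM1.S cells, 24.46 against 24.97 at H4, and at H2A genes in NCI-H929 cells, 18.6 against 19.1. Of 15 H4 genes, 8 had a POU2F3 region with DMSO in NCI-H526 cells, near the 53.2% of all genes, and 3 in NCI-H1048 cells, below the 36.5% of all genes. POU2AF1 had a region at 10 in MM1.S cells, beside 55.3% of all genes, and at 11 in NCI-H929 cells, beside 52.5%. H4C5, which had regions in the most lists of this class, 16, had levels of 9.42, 27.9 and 14.0 in NCI-H526 cells for POU2F3, HA-POU2F3 and HA-POU2AF2, and 40.1 and 24.4 for POU2AF1. H4C3 had 12.4, 44.2 and 18.6 in NCI-H526 cells, and H4C2 had 7.19, 32.1 and 15.8. The class order at HA-POU2F3 in NCI-H526 cells was H1 with a median of 41.0, H2B with 38.6, H2A with 34.0, H3 with 27.9 and H4 with 24.2.

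When each region was counted only for the member whose TSS was nearest its summit, a choice made after the data had been seen, the POU2F3 antibody list of NCI-H1048 cells with DMSO gave 12 H2B, 4 H2A, 1 H1, 2 H3 and 3 H4 genes. In NCI-H526 cells it gave 12 H2B and 9 H2A genes. POU2AF1 gave 14 H2A and 8 H2B genes with DMSO and 11 and 12 with AU-15330 in MM1.S cells, and 12 and 10 and then 10 and 14 in NCI-H929 cells.

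The 9 members with no region in any list were H1-1, H1-6, H2AC1, H2BC1, H3C14, H3C15, H4C14, H4C15 and H4C7. H1-1 is a linker histone gene, and H1-6, H2AC1 and H2BC1 encode testis-specific histones. H2AC1 and H2BC1 share a promoter with an octamer, so the sequence alone did not come with a region. H3C14, H3C15, H4C14 and H4C15 lie in an inverted duplication on chromosome 1, and 100% of their windows was found at a second place in the genome, against 87.5% at H2AC18 and 87.4% at H2AC19. Reads that align to both copies may not be counted there, so the absence of a region at these 4 genes cannot be told apart from unaligned reads.

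With AU-15330, a member was called retained where it had a region with DMSO and again with AU-15330. In NCI-H526 cells 31 of 50 members were retained for POU2F3 (27.9% of all genes with a DMSO region were), while HA-POU2F3 kept 42 of 52 (43.0%) and HA-POU2AF2 kept 16 of 51 (1.82%). As shares of the members these are 62.0%, 80.8% and 31.4%. Counted over each AU-15330 list by itself, POU2F3 had a region at 31 members (15.2% of all genes), HA-POU2F3 at 43 (22.7%) and HA-POU2AF2 at 16 (0.764%).

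HA-POU2F3 was retained at 31 of 40 members in NCI-H1048 cells (26.5% of all genes) and the unnamed HA protein at 13 of 50 (2.82%). The AU-15330 lists of these pairs had a region at 37 members (6.90% of all genes) and at 13 (0.594%). The 6 members with a region only with AU-15330 for HA-POU2F3, of 29 without one with DMSO, compare with 3.64% of all such genes.

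The POU2F3 antibody gave other counts in this line. All 30 members with a DMSO region were retained (97.3% of all genes), and 24 of the 39 members without one had a region with AU-15330 (36.1% of all such genes). The AU-15330 list then covered 54 of 69 members (58.5% of all genes), more than with DMSO.

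POU2AF1 regions were present at most histone promoters of the myeloma lines under both treatments. POU2AF1 was retained at 55 of 57 members in MM1.S cells (80.0% of all genes) and at 52 of 57 in NCI-H929 cells (83.9%). With AU-15330 it had a region at 55 members (45.6%) and at 52 (46.9%). IRF4 was retained at 10 of 45 members in MM1.S cells (28.4%) and at 1 of 53 in NCI-H929 cells (2.69%), or 22.2% and 1.89% of the members. With AU-15330 its lists covered 11 members (14.0%) and 2 (1.63%).

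In the 3 pairs of NCI-H526 cells and the 2 HA pairs of NCI-H1048 cells a larger share of octamer members than of others was retained. For POU2F3 in NCI-H526 cells 20 of 22 octamer members were retained and 11 of 28 others. For HA-POU2F3 the counts were 20 of 20 and 22 of 32, for HA-POU2AF2 10 of 21 and 6 of 30. HA-POU2F3 in NCI-H1048 cells was retained at 17 of 19 octamer members and 14 of 21 others. All 13 members retained for the unnamed HA protein had the octamer, of 21 with a DMSO region, while 0 of 29 others were retained. With the POU2F3 antibody in NCI-H1048 cells there was no difference, with 21 of 21 and 9 of 9. The shares were close for POU2AF1, with 24 of 24 and 31 of 33 in MM1.S cells and 23 of 23 and 29 of 34 in NCI-H929 cells. IRF4 in MM1.S cells had 4 of 19 and 6 of 26, and in NCI-H929 cells 1 of 21 and 0 of 32.

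Counting distinct regions in place of genes gave the same order in the NCI-H526 pairs and the HA pairs of NCI-H1048 cells. Of the DMSO regions of POU2F3 in NCI-H526 cells, 16 of 19 at octamer members overlapped an AU-15330 region and 7 of 28 at other members, beside 16.7% of all regions. For HA-POU2F3 the counts were 18 of 22 and 16 of 28, beside 14.6%, and for HA-POU2AF2 6 of 16 and 4 of 26, beside 1.26%. The unnamed HA protein had 7 of 15 and 0 of 24, beside 1.95%. HA-POU2F3 in NCI-H1048 cells had 9 of 14 and 7 of 19, beside 7.72%. In that pair 25 members were retained, in place of 31, where the AU-15330 region had to overlap a DMSO region. Outside the histone genes, protein-coding genes with an octamer core and a DMSO region were retained at 45.1% for POU2F3 and 58.4% for HA-POU2F3 in NCI-H526 cells, at 4.04% for HA-POU2AF2 and at 48.6% for HA-POU2F3 in NCI-H1048 cells.

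By class, POU2F3 in NCI-H526 cells was retained at 13 of 16 H2A and 12 of 15 H2B genes, and at 1 of 3 H1, 3 of 8 H3 and 2 of 8 H4 genes. HA-POU2F3 was retained at 14 of 15 and 14 of 14 H2A and H2B genes, at 3 of 4 H1, 5 of 9 H3 and 6 of 10 H4 genes. The 13 members retained for the unnamed HA protein were 7 H2A and 6 H2B genes. In MM1.S cells POU2AF1 was retained at 10 of 10 H3 and 10 of 10 H4 genes as well as at 15 of 16 H2A and 16 of 17 H2B genes.

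Retained members had higher DMSO levels than the others. For POU2F3 in NCI-H526 cells the median DMSO level was 19.8 at the 31 retained members and 7.69 at the other 19. For HA-POU2AF2 it was 26.4 and 12.6. Octamer members also had higher DMSO levels than others, as given above, so that octamer and level move together and their parts in retention were not tested apart. Of the 25 members at or above the median member level for POU2F3 in this line, 22 were retained, and of all 1131 genes at or above that level 78.5% were. For HA-POU2AF2 15 of 27 such members and 24.6% of such genes were retained. HA-POU2F3 had 26 of 26 and 96.2% in NCI-H526 cells, and 19 of 21 and 79.4% in NCI-H1048 cells. The POU2F3 antibody in NCI-H1048 cells had 17 of 17 and 99.1%. POU2AF1 had 29 of 29 and 100% in MM1.S cells, and 30 of 30 and 99.8% in NCI-H929 cells. For IRF4 the values were 9 of 25 and 41.8% in MM1.S cells, and 1 of 28 and 4.58% in NCI-H929 cells.

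Depth differs between the libraries of a pair. If the DMSO tags of each member were scaled to the background pileup of the AU-15330 library with nothing else altered, 48 of 50 members would pass the p-value reached by the weakest AU-15330 region for POU2F3 in NCI-H526 cells, where 31 were retained. For HA-POU2AF2 46 of 51 would pass, where 16 were retained. Over all genes with a DMSO region, 93.0% would pass for POU2F3 and 59.8% for HA-POU2AF2 in this line. In the other 7 pairs with a level every member with a DMSO region would pass. The lists also differ in length, and when only equal numbers of the strongest regions of each pair were compared, 17 members were retained for HA-POU2F3 in NCI-H526 cells and 2 for HA-POU2AF2. The counts were then 8 for HA-POU2F3 and 1 for the unnamed HA protein in NCI-H1048 cells, 32 for POU2AF1 in NCI-H929 cells and 0 for IRF4 in each myeloma line. For POU2F3 they were 22 in NCI-H526 and 29 in NCI-H1048 cells, and for POU2AF1 in MM1.S cells 42. No share of all genes is given for this cut, so these counts have no background beside them.

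**Figure D5:**
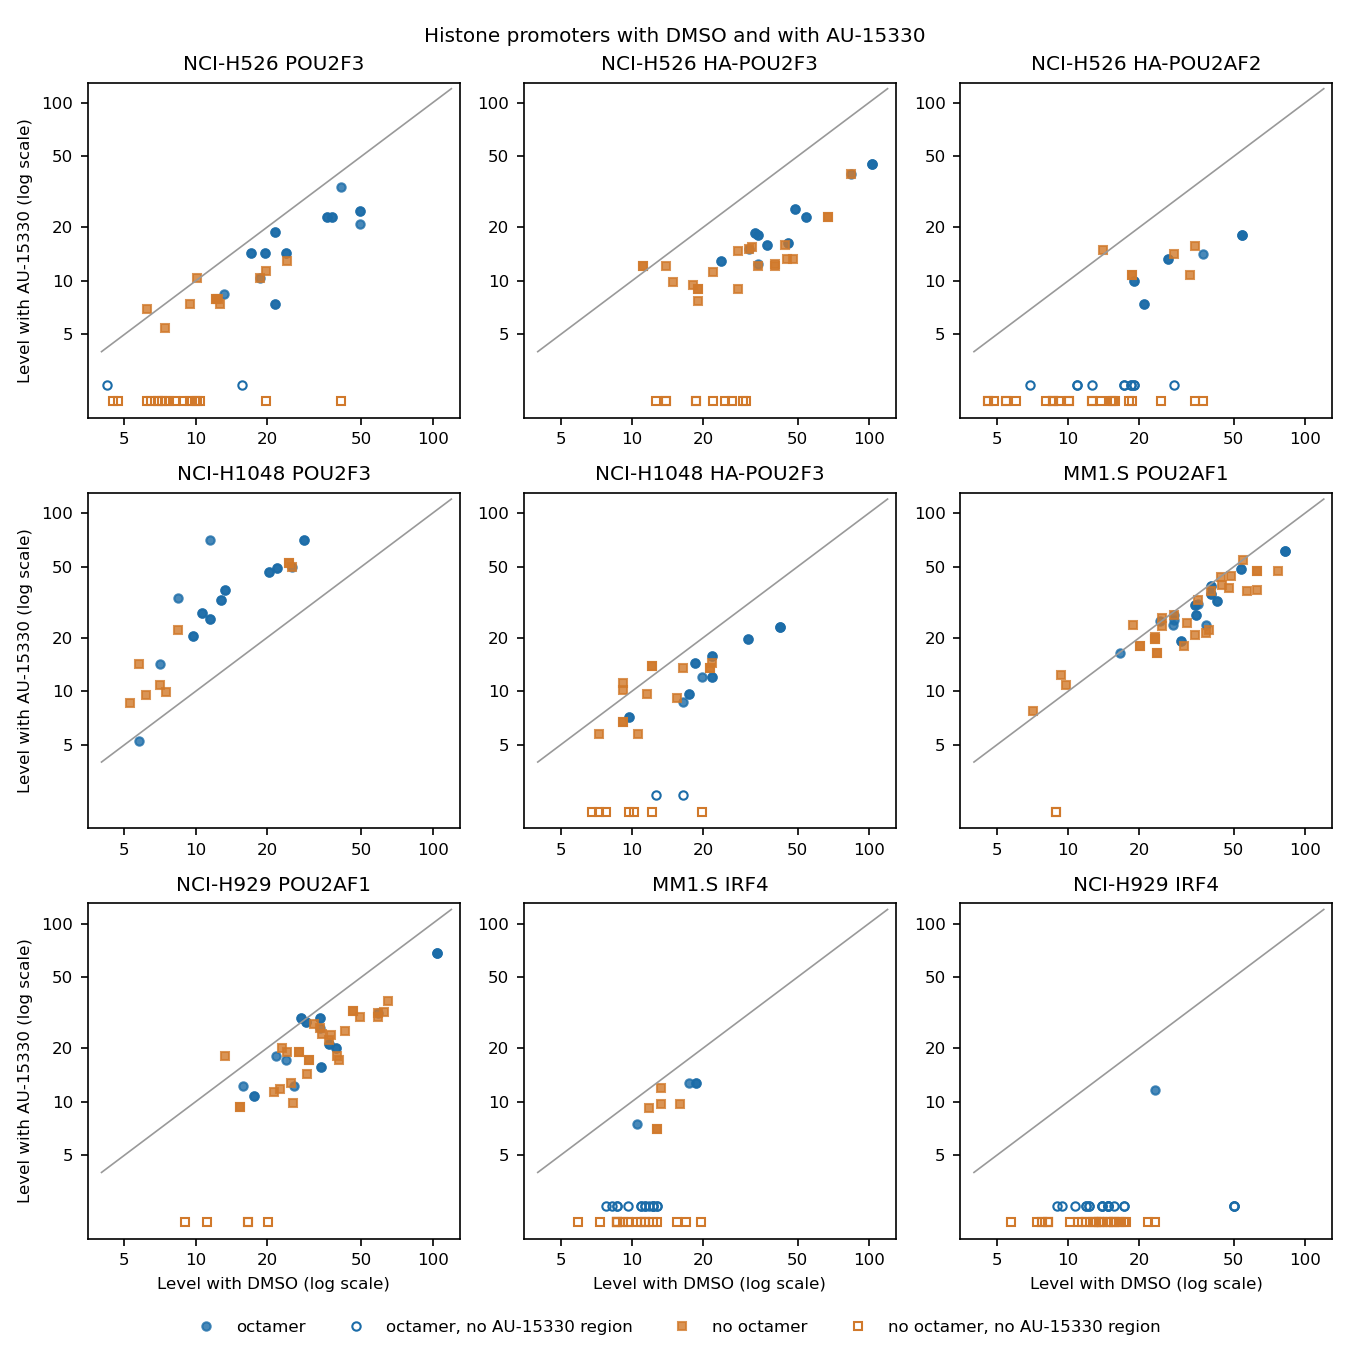
Level at each histone promoter with DMSO (x axis) and AU-15330 (y axis), both on log scales, in the 9 pairs that give a level. Circles have the octamer and squares do not, open symbols along the bottom have no AU-15330 region, and the line marks equal levels. Points lie below the line in most pairs and above it at 29 of 30 members with the POU2F3 antibody in NCI-H1048 cells.

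At retained members the median level ratio was below 1 in 8 of the 9 pairs that give a level. The median ratio of the AU-15330 to the DMSO level was 0.63 for POU2F3 in NCI-H526 cells, where 29 of 31 members were lower, beside 0.81 at all genes retained. It was 0.47 for HA-POU2F3, with 40 of 42 lower, beside 0.74, and 0.48 for HA-POU2AF2, with 15 of 16 lower, beside 0.81. HA-POU2F3 in NCI-H1048 cells had 0.66 over 31 members, with 27 lower, beside 0.83. These ratios leave out the members with no AU-15330 region. Ratios of the authors' folds were closer to 1, in NCI-H526 cells 0.89 for HA-POU2F3 and 0.78 for HA-POU2AF2, with 0.89 for HA-POU2F3 in NCI-H1048 cells. The order of the ratio at octamer and other members varied between pairs. It was lower at octamer members in the 3 pairs of NCI-H526 cells, with medians of 0.62 and 0.65 for POU2F3, 0.46 and 0.47 for HA-POU2F3, 0.37 and 0.54 with the coactivator HA-POU2AF2, and for HA-POU2F3 in NCI-H1048 cells, with 0.61 and 0.76. It was higher with the POU2F3 antibody in NCI-H1048 cells, 2.29 and 1.94, for POU2AF1 in NCI-H929 cells, 0.65 and 0.60, and for IRF4 in MM1.S cells, 0.70 and 0.67, and it was 0.87 in both groups for POU2AF1 in MM1.S cells.

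The POU2AF1 ratio was 0.87 over 55 members in MM1.S cells, beside 0.81 at all genes retained, and 0.61 over 52 members in NCI-H929 cells, beside 0.98. By the authors' folds they were 1.01 and 0.99, so the lower level was not seen on that scale. IRF4 had 0.70 over 10 members in MM1.S cells, beside 0.77, and in NCI-H929 cells H2BC18 alone was retained, with a level of 23.3 and then 11.7.

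H2BC21 carries these values in single numbers. In NCI-H526 cells with AU-15330 its level was 24.7 for POU2F3, 45.2 for HA-POU2F3 and 18.2 for HA-POU2AF2, each below the Poisson interval of its DMSO level. It was 23.1 for HA-POU2F3 in NCI-H1048 cells, 61.3 and 68.1 for POU2AF1, and 12.7 for IRF4 in MM1.S cells. For HA-POU2F3 the summits compared are 1055 bases apart in NCI-H526 cells and 1189 in NCI-H1048 cells. For HA-POU2AF2 they are 652 bases apart, so these levels are not of 1 place. The intervals of the 2 treatments overlap for POU2AF1 in MM1.S cells, 70.6 to 94.8 with DMSO and 50.8 to 73.3 with AU-15330, and for IRF4 there, 13.4 to 25.4 and 8.52 to 18.3, where the summits compared are 995 bases apart. No region was called for IRF4 in NCI-H929 cells. The HA-POU2AF2 region with AU-15330 was 271 bases long and its summit 1011 bases from the H2BC21 start, so that it reached the window without covering the octamer. For the unnamed HA protein the fold enrichment was 2.91 with DMSO over a region 2703 bases long and 4.10 with AU-15330 over 172 bases. That AU-15330 region and another, 236 bases long with a fold of 3.59, did not cover an octamer of the locus either.

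Single members gave the ends of the range. The lowest ratio for POU2F3 in NCI-H526 cells was 0.34 at H2BC12, from 21.6 to 7.41, and the highest 1.12 at H2AC18, from 6.20 to 6.91. H1-2 had the lowest ratio for HA-POU2F3, 0.28, from 48.0 to 13.3, and for HA-POU2AF2, 0.33, from 32.7 to 10.8. The summits compared there are 861 and 359 bases apart. The highest ratio for HA-POU2F3 was 1.08 at H2BC26, from 11.2 to 12.0 with summits 332 bases apart. For HA-POU2AF2 it was 1.06 at H4C5, from 14.0 to 14.9. For HA-POU2F3 in NCI-H1048 cells the lowest was 0.53 at H2AC7, with summits 1045 bases apart. H4C1 gave the highest, from 9.19 to 11.1, with summits 1233 bases apart.

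In the myeloma lines the lowest POU2AF1 ratio was 0.55 at H3C13 in MM1.S cells, with summits 1076 bases apart. In NCI-H929 cells it was 0.38 at H3C10, from 25.7 to 9.80. The highest was 1.32 at H2AC19 in MM1.S cells, from 9.36 to 12.4, and 1.37 at H4C16 in NCI-H929 cells, from 13.3 to 18.1. H3C2 was level in MM1.S cells, at 54.8 and 54.6, and lower in NCI-H929 cells, at 65.0 and 36.7. For IRF4 in MM1.S cells ratios ran from 0.55 at H2BC13 to 0.90 at H1-4.

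With the POU2F3 antibody in NCI-H1048 cells the direction was the opposite. The median ratio was 2.22 over 30 members, 29 of them higher, beside 2.20 at all genes retained, and the ratio of the authors' folds was 1.23. H2BC21 had 28.7 with DMSO and 70.5 with AU-15330, and H2BC17 had 20.3 and 46.4. The ratio was lowest at H2BC6, 0.92, from 5.74 to 5.27, and highest at H2AC21, 6.14, from 11.5 to 70.5, where the summits compared are 1363 bases apart because the H2BC21 region reached the H2AC21 window only with AU-15330. HA-POU2F3 in the same line was lower at H2BC21, as given above. The 24 members with a region only with AU-15330 were 3 of the 5 octamer members without a DMSO region and 21 of the 34 others. Of all genes without a DMSO region, 36.1% had one with AU-15330.

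Members with an IRF pattern were compared with those without it among the H2A and H2B genes. Among these 35 genes, 16 of 18 with GAAANNGAA and 10 of 17 without it had an IRF4 region with DMSO in MM1.S cells. In NCI-H929 cells the counts were 15 of 18 and 15 of 17. Of all genes, 43.4% and 59.2% had one in these lists. The corresponding POU2F3 antibody counts in NCI-H1048 cells were 15 of 18 and 8 of 17, beside 36.5% of all genes.

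Genes that make and process histone mRNA are given beside the histone genes. The list held 17 genes, among them NPAT, the coactivator of histone gene transcription, HINFP, the factor of H4 promoters, and SLBP, which binds the stem-loop of histone mRNA. All 17 had a POU2F3 region in NCI-H526 cells with DMSO (53.2% of all genes) and 5 with AU-15330 (15.2%). HA-POU2F3 in NCI-H1048 cells had a region at 3 of 17 with DMSO, near the 14.3% of all genes, where 40 of 69 histone genes had one. The unnamed HA protein likewise had one at 3, near the 15.2% of all genes. At the promoter of POU2F1 the POU2F3 antibody level was 42.9 and 30.1 in NCI-H526 cells with DMSO and AU-15330, and 52.1 and 119 in NCI-H1048 cells.

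With DMSO and AU-15330, the same 17 genes had HA-POU2AF2 regions at 11 and 0, beside 34.2% and 0.764% of all genes. They had POU2AF1 regions at 17 and 16 in MM1.S cells, beside 55.3% and 45.6%. In NCI-H929 cells the counts were 17 and 15, beside 52.5% and 46.9%.

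Of 11 replication-independent histone genes, 8 had a POU2F3 region in NCI-H526 cells with DMSO (53.2% of all genes) and 3 with AU-15330 (15.2%). For HA-POU2AF2 the counts were 10 (34.2%) and 1 (0.764%). POU2AF1 had a region at 9 of 11 with DMSO in MM1.S (55.3%) and NCI-H929 cells (52.5%). With AU-15330 it had one at 8 (45.6%) and 7 (46.9%). H2AX, the histone of DNA damage signalling, had levels of 17.9 for POU2F3 with DMSO and no region with AU-15330 in NCI-H526 cells. For H3-3B, an H3.3 gene, they were 25.5 and 15.3.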

How the data were processed

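ChIP-seq peak lists of 20 libraries were used, 1 per condition, grouped by line, protein and treatment as labelled. By the methods of the study and the submitters' processing notes, the authors used Trimmomatic (0.39) for trimming, BWA for alignment to GRCh38/hg38, and Picard and SAMtools for filtering. MACS2 was run on each library, with no control in the stated command, and bedtools took out blacklisted regions. The deposited fold enrichment is a ratio of the summit over the local background of the same library. The deposited −log10 p and −log10 q values are the authors' own, with a smallest −log10 q of 1.30. The deposited score is a whole number made from the −log10 q, and in 18 deposited lists a further column places the summit within its region, in bases.

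Regions outside chromosomes 1 to 22, X and Y, 0.283% to 12.4% of a list, were left out. In 18 lists a whole-number pileup that matched the −log10 p within 0.002 was recovered for 100% of regions. Depth is known only through the background pileup. The recovery, overlap and motif searches were tested on simulated data. TSSs are from GENCODE 44, and sequences were read from hg38. The histone genes, other gene lists and motifs were chosen with earlier results of these data known. Named genes are, per class, the 3 members with regions in the most lists, members with none, and per pair those with the highest DMSO level and the lowest and highest ratio. H1-3, H2BC5, H2BC15, POU2F1, H2AX and H3-3B were named after their values were seen. Alternatives were other windows, annotated starts, thresholds, region sharing, ratios and octamer definitions. Analyses used Python 3.11.15, pandas 2.3.3, SciPy 1.17.1 and pysam 0.24.0.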

Additional observations from a re-analysis of the deposited data

Results flagged for a closer look

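The median ratio of the AU-15330 to the DMSO level at retained histone promoters lay on opposite sides of 1 in the 2 SCLC-P lines with the POU2F3 antibody, 0.63 in NCI-H526 cells with 29 of 31 members lower and 2.22 in NCI-H1048 cells with 29 of 30 higher. With 1 library per condition this difference between lines was not tested. Over all retained genes the ratios were 0.81 and 2.20, and HA-POU2F3 in NCI-H1048 cells gave 0.66 at histone promoters.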

How the results depend on the processing

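Each condition is 1 library, so no replicate could be left out. No paired analysis was possible because no result comes from a test. Of 140 recounts of members with a region 123 stayed within 1.5 times, of 70 recounts of retained members 58, and of 26 median ratios 13 stayed, 10 moved and 3 changed side of 1. The 3 other octamer definitions left the H2B count as it was. Counting genes that share a region once gave, with DMSO and AU-15330 where both moved, in NCI-H526 cells POU2F3 33 (DMSO), HA-POU2F3 33 and 26 and HA-POU2AF2 33 and 10, and in NCI-H1048 cells POU2F3 19 and 34, HA-POU2F3 24 and the unnamed HA protein 7 (AU-15330). A −log10 q of at least 5 gave 6 for HA-POU2AF2, 22 for HA-POU2F3 in NCI-H1048 cells, 1 for IRF4 in each myeloma line, all with AU-15330, and 25 and 5 for the unnamed HA protein. Its AU-15330 count was 8 with each region given to the nearest start, an alternative chosen after seeing the data, and a 2 kb window gave 4 for IRF4 in NCI-H929 cells with AU-15330. Retained members came in NCI-H526 cells to 17 for HA-POU2F3 and 2 for HA-POU2AF2, 8 for HA-POU2F3 and 1 for the unnamed HA protein in NCI-H1048 cells, 32 for POU2AF1 in NCI-H929 cells and 0 for IRF4 in both myeloma lines when equal numbers of the strongest regions were compared. They came to 6, 20, 5 and 1 for HA-POU2AF2, HA-POU2F3 in NCI-H1048 cells, the unnamed HA protein and IRF4 in MM1.S cells at the stricter q in both lists, and to 3 for IRF4 in NCI-H929 cells in the 2 kb window. Ratios from the authors' folds were, in NCI-H526 cells, 0.89 for HA-POU2F3 and 0.78 for HA-POU2AF2, 1.23 and 0.89 for POU2F3 and HA-POU2F3 in NCI-H1048 cells, 1.01 and 0.99 for POU2AF1 and 0.86 and 0.70 for IRF4 in MM1.S and NCI-H929 cells. Divided by the median of other genes they were 1.01 for POU2F3 in NCI-H1048 cells, 1.08 for POU2AF1 and 0.90 for IRF4 in MM1.S cells and 1.11 for IRF4 in NCI-H929 cells. With summits within 200 bases IRF4 in MM1.S cells gave 0.55, and IRF4 in NCI-H929 cells gave no value. The causes were not tested.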
